A study of Gallus gallus with 18 samples.

Results

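The zona pellucida genes of the hen encode the glycoproteins of the egg coat, the perivitelline layer that surrounds the yolk and is the first structure a sperm meets. Their levels were examined in ovary, liver and abdominal adipose tissue of broiler breeder hens. Members were taken by symbol, from a list chosen with earlier results of these data known. ZP1, ZP2, ZP3, ZP4 and ZPD were looked up in the gene annotation that accompanies the study. 3 of the 5 symbols had an identifier among the 17108 genes counted, namely ZP2 (ENSGALG00000002428), ZP3 (ENSGALG00000001559) and ZP4 (ENSGALG00000005462). ZP1 and ZPD were dropped as members, and ZP1 was not analysed here. RefSeq gives ZPD as a synonym of UMOD (ENSGALG00000001069), so that gene is described beside the members under its RefSeq symbol. The synonym belongs to another build than the counts, and whether the counted gene is ZPD was not checked further. The egg coat relatives ZP3L1 (ENSGALG00000001552) and ZPAX (ENSGALG00000016465) are described in the same way. In the RefSeq annotation of assembly GRCg7b, ZP3L1 and ZP3 are direct neighbours.

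The ad libitum hens had free access to feed from 22 weeks of age, while the restricted hens stayed on the breeder guide's allowance. Both groups were Arbor Acres hens raised alike to target body weight before that, and tissues were taken at 30 weeks. There were 3 hens per feeding group, and each hen gave 1 library per tissue, which makes 18 libraries in all. Libraries are named by tissue (O ovary, F adipose, L liver), hen and feeding (ad or R). The ovary sample was stroma with its small follicles, extracted whole, so fewer cells of a type and less RNA per cell cannot be told apart.

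In birds, unlike mammals, the egg coat proteins come from several sources. ZP1 is made in the liver under estrogen and reaches the follicle through the blood, ZP3 and ZPD are made by the granulosa cells that surround the oocyte, and ZP2 and ZP4 are transcribed in the oocyte itself, as known from chicken and quail. UMOD is named after uromodulin, a urinary protein of the mammalian kidney that carries the same ZP domain. ZP3L1 and ZPAX are egg coat relatives of non-mammalian vertebrates.

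Total counts ranged from 14793554 to 23261748 per library (median 19846090.5), so 3 counts, used as the detection floor, corresponded to 0.129 to 0.203 CPM (counts scaled to a common library total). Levels below are CPM scaled within each tissue by the trimmed mean of M-values (TMM). They are not divided by gene length, so they are compared between libraries and not between genes. They are not on 1 scale across tissues, so levels of different tissues are compared only roughly. TMM over all 18 libraries gave factors of 1.56 to 1.72 in ovary, 1.13 to 1.33 in adipose and 0.434 to 0.515 in liver. Tissue labels were borne out by their markers. The summed level of 7 liver genes was 311430 to 498857 CPM in liver libraries, against at most 1306 CPM in adipose and 1022 CPM in ovary. That of 4 fat cell genes was 12176 to 30388 CPM in adipose libraries, against at most 318 CPM in ovary and 16.6 CPM in liver. In ovary libraries 10 granulosa genes summed to 1213 to 2218 CPM, against at most 50.3 CPM in adipose and 34.7 CPM in liver. Individual ovary libraries stood apart in single markers of other cell types. O1723_ad had 4807 CPM of 2 red blood cell genes, against 59.8 to 560.0 CPM in the other 5. O1724_R had the highest sum of 5 theca and stroma genes (5032 CPM). DES alone gave 3404 CPM of it, so this sum does not describe theca and stroma as a whole.

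The feeding comparison in ovary asked which transcripts differ between overfed and restricted hens. ZP3 was the egg coat member with the widest separation. It had 338, 71.5 and 167 CPM in O1721_ad, O1723_ad and O1725_ad, against 33.5, 54.4 and 34.2 CPM in O1724_R, O6709_R and O6710_R. Every ad libitum ovary was above every restricted ovary, although O1723_ad lay close to O6709_R. The means were 191.9 ± 134.9 CPM with ad libitum feeding and 40.7 ± 11.8 CPM with restriction (SD, n = 3 each). UMOD, the gene that RefSeq pairs with ZPD, showed the same order. It had 16.1, 10.4 and 10.7 CPM in O1721_ad, O1723_ad and O1725_ad, against 2.48, 3.80 and 1.25 CPM in O1724_R, O6709_R and O6710_R. Its groups did not overlap either. Of the 12871 genes tested in ovary, 9.52% had feeding groups that did not overlap, and 6.01% had every ad libitum library higher.

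By edgeR's quasi-likelihood test with Benjamini-Hochberg adjustment over all tested genes, the log2 fold change of ZP3 was 2.24 (SE 0.54, adjusted p = 0.878). That of UMOD was 2.30 (SE 0.46, adjusted p = 0.878 by the same test). Neither passed the adjusted threshold of 0.1, and both were under 0.05 before adjustment. This test called 0 genes in ovary (0%), with 624 (4.85%) at an unadjusted p under 0.05, whereas DESeq2 called 48 (0.374%) and edgeR's likelihood ratio test called 24 (0.186%) with gene-wise dispersions and 245 (1.9%) with trended dispersions. These 3 tests called both genes. The adjusted p of ZP3 was 0.0225 by DESeq2 and 0.040 by the gene-wise likelihood ratio test, and over its 7 alternatives it ran from 2.77e-09 to 0.926. For UMOD the DESeq2 value was 0.00199, and its range was 0.00164 to 0.924. When each hen was left out in turn, the log2 fold change of ZP3 lay between 1.54 (without O1721_ad) and 2.62 (without O1723_ad), and that of UMOD between 1.98 and 2.73. The sign was positive in each of these fits.

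**Figure D1:**
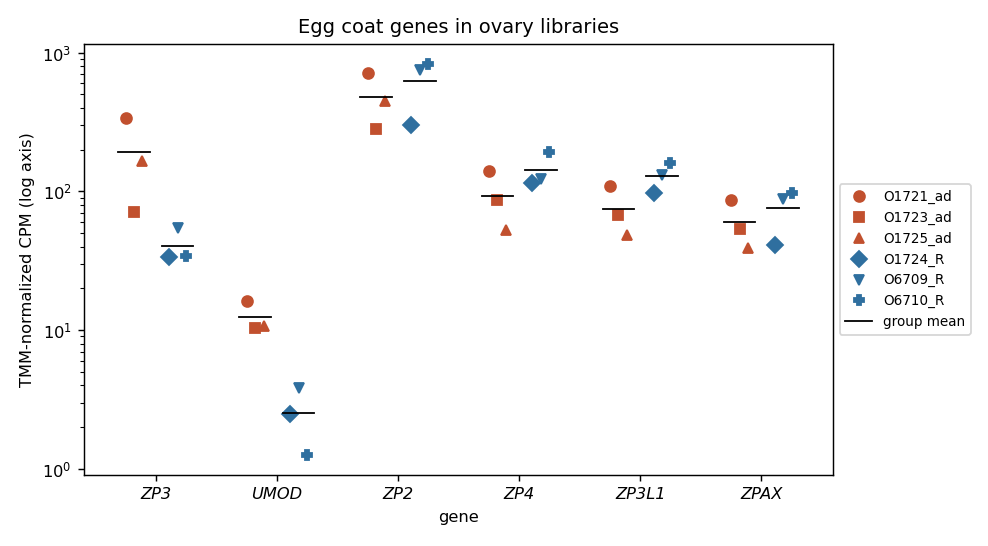
TMM-normalized CPM (log axis) of ZP2, ZP3, ZP4, their relatives ZP3L1 and ZPAX, and UMOD, which may be ZPD, in the 6 ovary libraries. Each point is 1 library, ad libitum in red on the left and restricted in blue on the right of each pair, and black lines are group means (n = 3 each). For ZP3 and UMOD every red point is above every blue point, while the groups overlap for ZP2, ZP4, ZP3L1 and ZPAX.

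The oocyte members did not share this order. ZP2 had 715, 283 and 448 CPM in O1721_ad, O1723_ad and O1725_ad, against 302, 748 and 834 CPM in O1724_R, O6709_R and O6710_R. The groups overlapped, with 1 low library in the restricted group and 1 high library in the ad libitum group. ZP4 had 139, 86.2 and 52.7 CPM in the ad libitum ovaries O1721_ad, O1723_ad and O1725_ad, against 115, 123 and 193 CPM in the restricted ovaries O1724_R, O6709_R and O6710_R. Here O1721_ad was above O1724_R and O6709_R, and the remaining ad libitum ovaries were below all restricted ones. The log2 fold change was -0.38 for ZP2 (SE 0.47, adjusted p = 0.895 by the edgeR quasi-likelihood test) and -0.63 for ZP4 (SE 0.37, adjusted p = 0.878). When each hen was left out in turn, ZP2 lay between -0.79 (without O1721_ad) and -0.11 (without O1723_ad), and ZP4 between -1.05 (without O1721_ad) and -0.35 (without O1725_ad). None of the 7 alternative analyses brought the adjusted p of ZP2 or ZP4 under 0.1.

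The relatives ZP3L1 and ZPAX followed ZP2 and ZP4 rather than ZP3 in the direction of their values. ZP3L1 had 109, 67.4 and 48.2 CPM in O1721_ad, O1723_ad and O1725_ad, against 96.9, 131 and 159 CPM in O1724_R, O6709_R and O6710_R. Its log2 fold change was -0.78 (SE 0.33, adjusted p = 0.878 by the edgeR quasi-likelihood test). Before adjustment ZP3L1 was under 0.05, as were 1.83% of all genes in this direction. ZPAX had 86.6, 53.4 and 39.0 CPM in the ad libitum ovaries and 41.0, 87.4 and 97.4 CPM in the restricted ovaries, with a log2 fold change of -0.34 (SE 0.40). ZP3 and its neighbour ZP3L1 therefore had opposite signs in the same libraries.

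Ratios within a library set the members against each other without the TMM scaling. The CPM ratio of ZP3 to ZP2 was 0.472, 0.253 and 0.372 in O1721_ad, O1723_ad and O1725_ad, against 0.111, 0.0727 and 0.0410 in O1724_R, O6709_R and O6710_R. The ratio of ZP3 to ZP3L1 was 3.10, 1.06 and 3.46 with ad libitum feeding, against 0.346, 0.416 and 0.215 with restriction. Both ratios were higher in each ad libitum ovary than in any restricted ovary. Both share ZP3, whose own levels did not overlap between the groups, and no share over other gene pairs was computed. With 3 hens against 3, the smallest two-sided p that an exact permutation test can give is 0.10. The ratio of ZP4 to ZP3L1 stayed within 0.940 and 1.28 over all 6 ovaries, and the ratio of ZP4 to ZP2 overlapped between the groups (0.118 to 0.305 with ad libitum feeding, 0.164 to 0.380 with restriction).

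Other oocyte and follicle genes were described beside the members. 5 of 9 listed oocyte genes were found, and 0 of these 5 passed the adjusted threshold in ovary, as did 0 of the 12871 genes tested. All 5 had negative log2 fold changes (median -0.71), against a median of -0.02 over all tested genes, of which 47.8% were positive. LHX8, an oocyte transcription factor, had -0.92 (adjusted p = 0.878 by the edgeR quasi-likelihood test, and the 1 of the 5 under 0.05 before adjustment, as were 1.83% of all genes in this direction), GDF9, a growth factor secreted by the oocyte, -0.78, DAZL, a germ cell RNA-binding protein, -0.71, MOS, a kinase of meiotic arrest, -0.64, and BMP15, the partner of GDF9, -0.25. The summed level of the 5 genes was 508, 316 and 231 CPM in O1721_ad, O1723_ad and O1725_ad, against 353, 575 and 756 CPM in O1724_R, O6709_R and O6710_R. It overlapped between the groups. ZP2, ZP4, ZP3L1 and ZPAX had the sign of this list, and ZP3 and UMOD did not.

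10 of 12 listed granulosa genes were found, of which 5 had positive and 5 negative log2 fold changes (median 0.06). Over all tested genes 47.8% were positive. 0 of the 10 passed the adjusted threshold, as did 0 of the 12871 genes tested. Their summed level was 1568 to 1788 CPM in ad libitum ovaries and 1213 to 2218 CPM in restricted ovaries. FOXL2, a granulosa transcription factor, had a log2 fold change of -0.34, AMH, the hormone of small follicles, -0.33, and STAR, which moves cholesterol into mitochondria for steroid synthesis, 1.67. INHA, the inhibin alpha subunit, was named after its value was seen: it had 37, 76 and 27 counts in O1721_ad, O1723_ad and O1725_ad, against 2, 6 and 0 counts in O1724_R, O6709_R and O6710_R. INHA passed the filter only through the ad libitum group, so its positive direction was fixed by the filter and is a description. Its fitted log2 fold change of 4.06 depends on these near-zero counts and is no bound. The 5 positive genes were INHA, STAR, CYP11A1 (1.28), NR5A1 (0.33) and INHBA (0.20), which have the sign of ZP3, and the other 5 had the opposite sign. The summed granulosa level, in which AMH (mean 672 CPM) and FOXL2 (481 CPM) were the largest parts, overlapped between the groups. Its bearing on the ZP3 level was not tested.

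**Figure D2:**
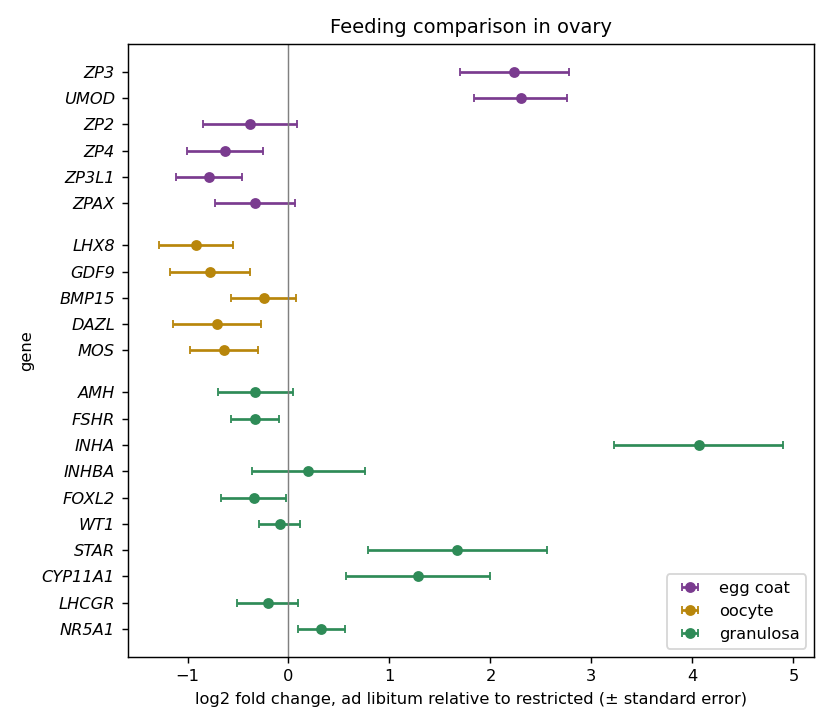
Log2 fold change in ovary, ad libitum relative to restricted, with its standard error (edgeR, n = 3 hens each), for egg coat, oocyte and granulosa genes. UMOD, which may be ZPD, is shown with the egg coat genes. ZP3 (2.24) and UMOD (2.30) lie to the right of zero, while ZP2, ZP4, ZP3L1, ZPAX and the 5 oocyte genes lie to the left.

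Markers of liver, immune cells and red blood cells had positive log2 fold changes in ovary, as ZP3 did, and their part in the result was not tested. Among the ad libitum ovaries, the immune and red blood cell sums were highest in O1723_ad, where ZP3 was lowest, and the liver sum had the order of ZP3. Among the restricted ovaries this was reversed. There the immune and red blood cell sums were highest in O6709_R, where ZP3 was highest, and the liver sum was highest in O1724_R, where ZP3 was lowest. The 7 liver genes were all positive in the feeding comparison, 5 at an unadjusted p under 0.05, a level that 3.02% of all genes reached in this direction. Their summed level in ovary was 1022, 65.2 and 456 CPM in O1721_ad, O1723_ad and O1725_ad, against 160, 45.1 and 68.0 CPM in O1724_R, O6709_R and O6710_R. These groups overlapped. ZP3 itself reached at most 0.426 CPM in any liver library. The 3 immune genes found summed to 105, 153 and 149 CPM with ad libitum feeding, against 67.7, 92.3 and 26.7 CPM with restriction, and these sums did not overlap. Of the 3 genes, 1 (SPI1) had every ad libitum ovary higher, as did 6.01% of all genes tested in ovary. The 3 genes had a median log2 fold change of 1.12. The 2 red blood cell genes had log2 fold changes of 2.95 and 2.68, and summed to 293, 4807 and 438 CPM in O1721_ad, O1723_ad and O1725_ad, against 206, 560.0 and 59.8 CPM in O1724_R, O6709_R and O6710_R.

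The egg coat genes were also compared across tissues. ZP2 was close to absent outside the ovary. It had 283 to 834 CPM in the 6 ovary libraries, at most 0.202 CPM in adipose and at most 0.103 CPM in liver. Over all libraries this was 65463 counts in ovary, 11 in adipose and 4 in liver. The pooled CPM ratio of ovary to adipose, without TMM scaling, was 5463 (95% exact interval 3053 to 10944, counting error only). ZP4 had 52.7 to 193 CPM in ovary, 0.0449 to 1.84 CPM in adipose and 0.0563 to 0.497 CPM in liver. ZPAX had 7975 counts over the ovary libraries and 0 counts in all 6 liver libraries. ZP3L1 had 1 count in liver in total.

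In a fit of all 18 libraries, ovary minus liver was 12.30 for ZP2 (SE 0.55, adjusted p = 1.35e-11), 7.11 for ZP4 (SE 0.44, adjusted p = 6.68e-10), 7.09 for ZP3 (SE 1.12, adjusted p = 2.63e-05) and 3.52 for UMOD (SE 0.93, adjusted p = 0.00266) on the log2 scale, by edgeR's quasi-likelihood test. All 3 members were called higher in ovary, as were 44.5% of the 13426 genes tested, and the median gene was at 0.16. The members and UMOD had 0 to 11 counts per liver library and entered this fit through the tissue where they are high, so this direction was fixed by the filter and is a description. Against adipose, ZP2 (11.83, adjusted p = 8.79e-11) and ZP4 (7.56, adjusted p = 1.96e-09) were called higher in ovary, as were 35.5% of genes. ZP2, ZP4 and UMOD did not pass the filter in adipose and entered this fit through ovary, so this direction is a description as well. The ovary minus adipose difference of UMOD was 1.75 (adjusted p = 0.0567). It missed the threshold in fits without O1723_ad, O1725_ad or O6709_R and their companion libraries, down to 1.43 (adjusted p = 0.185), and in each feeding group alone (1.93 in ad libitum hens and 1.57 in restricted hens).

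ZP3 and UMOD were nearer to their ovary level in some adipose libraries than ZP2 and ZP4. Without TMM scaling, the pooled CPM ratio of ovary to adipose was 4.34 for ZP3 (95% exact interval 4.17 to 4.52) and 4.56 for UMOD (3.87 to 5.39), for counting error only. F1721_ad alone held 2064 of the 2891 adipose counts of ZP3 and 140 of the 175 of UMOD. ZP3 had 92.6, 0.719 and 3.91 CPM in F1721_ad, F1723_ad and F1725_ad, against 31.2, 10.8 and 4.97 CPM in F1724_R, F6709_R and F6710_R. These rested on 2064, 12 and 72 counts in the ad libitum fat and 463, 206 and 74 counts in the restricted fat. F1721_ad was highest and F1723_ad lowest, so the ad libitum group spanned the restricted one, and 3 of the 6 libraries were under 5 CPM. The adipose level of ZP3 exceeded that of liver by 5.62 on the log2 scale (SE 1.10, adjusted p = 2.56e-04 by the edgeR quasi-likelihood test), a call that 42.2% of genes shared in this direction. ZP3 had 0 to 10 counts per liver library and did not pass the filter there, so this direction is a description. Ovary minus adipose was 1.47 (SE 0.77, adjusted p = 0.103 by the same test). With the hen as replicate block, which pairs the tissues of each hen, it was 2.49 (adjusted p = 0.00472). It was 3.02 without the libraries of the hen of O1721_ad (adjusted p = 0.000940), and 1.39 and 2.03 without those of O1723_ad and O1724_R (adjusted p = 0.0945 and 0.0614). Without O1725_ad, O6709_R or O6710_R and their companion libraries it was 1.26, 1.25 and 1.36, with adjusted p up to 0.237. Among 6 other alternatives it ran from 0.92 (restricted hens alone, adjusted p = 0.492) to 2.49, and 3 were under 0.1.

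**Figure D3:**
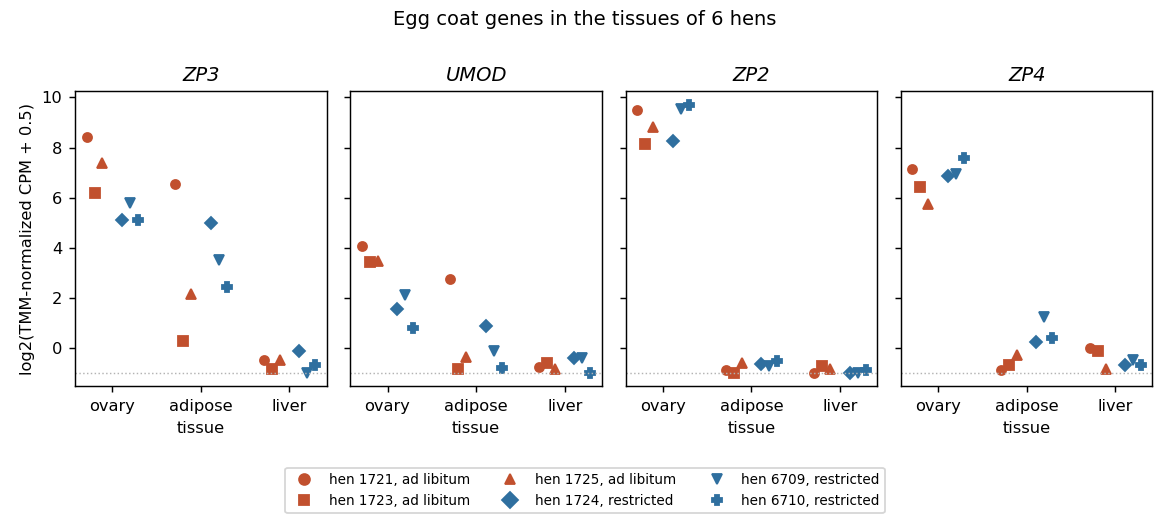
Levels of ZP3, UMOD, ZP2 and ZP4 by tissue on the log2(TMM-normalized CPM + 0.5) scale, with TMM scaling within each tissue. Each point is 1 library, a marker shape is 1 hen, ad libitum in red is left of restricted in blue, and the dotted line is 0 CPM. ZP2 and ZP4 lie far above the line in ovary. In adipose tissue ZP3 had 92.6 CPM in F1721_ad, within its ovary range, 31.2 CPM in F1724_R, and 0.719 to 10.8 CPM in the other libraries.

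No feeding difference could be called for ZP3 in adipose tissue. The log2 fold change was 1.05 (SE 1.46, adjusted p = 0.923 by the edgeR quasi-likelihood test, which called 1 gene of 11914, 0.00839%). It was -2.75 without F1721_ad and 2.01 without F1724_R, so the direction rested on F1721_ad. UMOD had 6.28, 0.0599 and 0.272 CPM in F1721_ad, F1723_ad and F1725_ad, against 1.35, 0.421 and 0.0672 CPM in F1724_R, F6709_R and F6710_R. Like ZP3, it was highest in F1721_ad and next in F1724_R. ZP3L1 stayed at or under 0.134 CPM in adipose, with 2 counts in F1721_ad, where ZP3 had 2064. Both genes are neighbours, and the adipose reads were assigned to ZP3.

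ZP4 in adipose had few counts. It had 1, 2 and 6 counts in F1721_ad, F1723_ad and F1725_ad, against 10, 35 and 12 counts in F1724_R, F6709_R and F6710_R. All restricted libraries were higher, an order that 4.65% of the genes tested in adipose showed. It did not pass the filter on low counts. Without that filter its log2 fold change was -2.71 (SE 0.83, adjusted p = 0.840 by the edgeR quasi-likelihood test).

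Follicle markers were given in adipose because ZP3 was high in F1721_ad, and their part in the ZP3 level was not tested. The summed granulosa level was 50.3 CPM in F1721_ad, against 17.1 to 32.4 CPM in the other 5 adipose libraries. Of that sum, WT1, which is not particular to granulosa cells, gave 32.1 CPM. AMH had 2.11 CPM in F1721_ad and 2.0 to 3.12 CPM in the others. FOXL2 had 1.66 CPM in F1721_ad against 0.544 to 1.44 CPM, and FSHR, the receptor of follicle-stimulating hormone, had 1.08 CPM against 0.0526 to 0.806 CPM. CYP11A1 (3.73 CPM), LHCGR (3.05 CPM), STAR (1.53 CPM), INHA (1.48 CPM) and NR5A1 (0.898 CPM) were also highest in F1721_ad, on 20 to 83 counts each. INHBA was highest in F1724_R (10.7 CPM). The 5 oocyte genes summed to 2.78 to 3.64 CPM with ad libitum feeding and 2.79 to 6.65 CPM with restriction. Of these, LHX8, which was also found in liver (mean 9.27 CPM), averaged 2.09 CPM in adipose. GDF9, BMP15, DAZL and MOS averaged 0.0951 to 0.766 CPM there. The oocyte member ZP2 had at most 3 counts in any adipose library.

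The difference between the feeding effects of 2 tissues was also fitted. For ZP3, ovary minus adipose was 1.20 (SE 1.70, adjusted p = 0.985 by edgeR's quasi-likelihood test). It ran from 0.09 without the hen of O1724_R to 4.28 without that of O1721_ad. For ZP4 it was 2.15 (SE 0.82, adjusted p = 0.982 by the same test), which was under 0.05 before adjustment. ZP4 had 1 to 35 counts per adipose library, did not pass the filter there and entered this fit through ovary. Its value is a description, and no tissue difference is drawn from it. For ovary against liver no member is given, because none passed the filter in liver. Over all genes tested for ovary against adipose and for ovary against liver, the quasi-likelihood test called 0 genes in either comparison (0%), with 614 (4.64%) and 883 (6.72%) genes at an unadjusted p under 0.05, and DESeq2 called 9 and 48.

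The 3 member pairs were compared across the 6 ovary libraries on the log2(CPM + 0.5) scale, with exact two-sided permutation tests. ZP2 and ZP4 had r = 0.580 (p = 0.232, adjusted p = 0.696) and rho = 0.771 (p = 0.103, adjusted p = 0.308), and r was 0.981 without O1723_ad and O1724_R. ZP2 and ZP3 had r = 0.158 (exact permutation p = 0.749, adjusted p = 0.749) and rho = -0.0857 (p = 0.919, adjusted p = 0.919), and r was -0.498 without the same libraries. ZP3 and ZP4 had r = -0.354 (exact permutation p = 0.499, adjusted p = 0.748) and rho = -0.20 (p = 0.714, adjusted p = 0.919), with r of -0.727 without O1721_ad and O1725_ad. No pair passed a threshold of 0.05. After the mean of each feeding group was subtracted, r was 0.537 for ZP2 with ZP4, 0.715 for ZP2 with ZP3 and 0.308 for ZP3 with ZP4, given as a description, so the sign of ZP3 with ZP4 depended on the feeding means. As a description over the same 6 libraries, r was 0.894 for ZP3 with UMOD, 0.964 for ZP4 with ZP3L1, 0.850 for ZP2 with ZPAX and 0.804 for ZP4 with ZPAX.

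**Figure D4:**
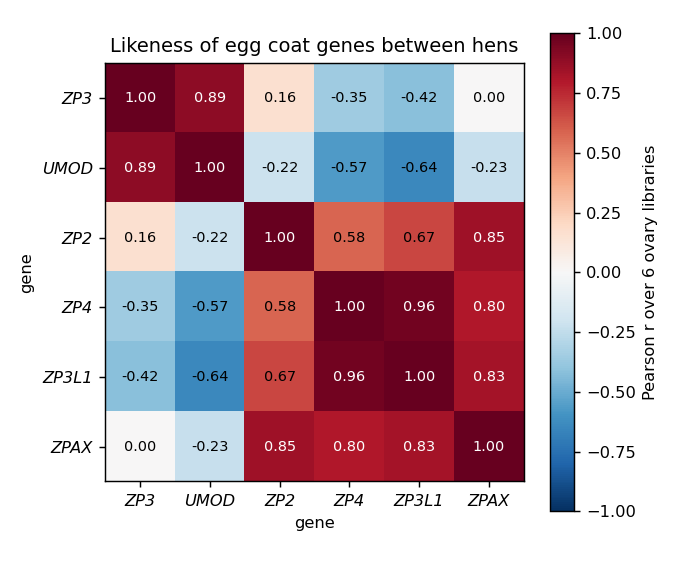
Pearson r between egg coat genes and UMOD, which may be ZPD, over the 6 ovary libraries (3 ad libitum, 3 restricted), on log2(TMM-normalized CPM + 0.5). ZP3 and UMOD had r = 0.89, and ZP2, ZP4, ZP3L1 and ZPAX had r from 0.58 to 0.96 with each other. These values include the difference between the feeding means. With those means subtracted, r was 0.715 for ZP2 with ZP3 and 0.537 for ZP2 with ZP4.

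The genes with the pattern most like each member were sought among 5570 named genes, by Pearson r over the 6 ovary libraries. With so few libraries high values are common, and r does not measure the size of a change. ZP2 was closest to CCNA2, a cyclin of DNA replication (r = 0.999), followed by PIAS4, NAA30, AGPAT5 and TDRD7, a germ granule protein. CCNA2 had 66.9, 28.7 and 43.7 CPM in O1721_ad, O1723_ad and O1725_ad, against 31.2, 67.6 and 72.6 CPM in O1724_R, O6709_R and O6710_R. ZP4 was closest to BTG4, which in mouse oocytes acts in the clearance of maternal transcripts (r = 0.987), with EOMES, MYO5B and TDRD9, a helicase of the piRNA pathway, also among its 5 nearest. ZP3 was closest to TRPM1, a cation channel (r = 0.963), followed by DEGS2, REEP3, RBP and SUPT20H. SUPT20H ran only from 55.3 to 65.2 CPM, while ZP3 ran from 33.5 to 338 CPM. UMOD was closest to MCCC1, followed by ATP6V0D2, MAP3K8, SLC24A4 and FBP1. MCCC1 ran from 57.7 to 76.8 CPM, while UMOD ran from 1.25 to 16.1 CPM. DEGS2 and ATP6V0D2 passed the filter only through the ad libitum group. ZP3L1 was closest to MTHFD2, followed by LOC100859850, CNTN6, NMNAT3 and ST6GALNAC2. ZPAX was closest to KCTD20, followed by NCBP1, FAM173B, PIWIL1, a germline piRNA protein, and CDS1. In adipose, where this rule was applied after the values were seen, ZP3 was closest to RET, a receptor tyrosine kinase (r = 0.995).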

How the data were processed

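RNA was sequenced from ovary, liver and adipose tissue. The deposited table holds whole-number counts per Ensembl gene. Per the labels, the authors prepared NEBNext Ultra libraries, and the submitters' processing notes name CASAVA 1.8, TopHat2 2.1.1, Bowtie2 2.0.6 and edgeR. The paper gives genome Gallus_gallus-5.0. Symbols came from the study's supplementary annotation (5822 of 17108 genes) and RefSeq GRCg7b synonyms. Counts were tested in edgeR 4.0.16 (R 4.3.3) with TMM and the quasi-likelihood test, and Benjamini-Hochberg adjusted p under 0.1 was called. A gene entered the test when every library of some group exceeded 1 CPM. SE was derived from the fold change and the F statistic. Methods were tested on simulated data. Alternatives were DESeq2 1.42.0, likelihood ratio tests, other scaling, no filter and leaving out each hen. Members are named whatever their values, lists are summarised by counts, and the 5 named genes with the highest r are given as most alike, except where an item is not reported here. The members and lists were chosen with earlier results of these data known. Same-numbered libraries come from the same hen: mean correlation of deviations was 0.224 for ovary and adipose, -0.0466 for ovary and liver, and 0.0285 for adipose and liver. No sequence is shown.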

Additional observations from a re-analysis of the deposited data

How the results depend on the processing

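The number of genes called for feeding depended on the test. In ovary it was 0 by the quasi-likelihood test, 48 by DESeq2, and 24 and 245 by likelihood ratio tests with gene-wise and trended dispersions. In adipose these counts were 1, 78, 88 and 349, and in liver 1, 241, 146 and 395. A fit of all 18 libraries called 2 in adipose and 3 in liver. Leaving out each hen in turn gave 0 to 6 calls in adipose and 0 to 104 in liver, with both maxima in the fit without F6709_R and L6709_R. For the interactions, DESeq2 called 9 genes for ovary minus adipose and 48 for ovary minus liver, where leaving out hens gave 0 to 1. The adipose log2 fold change of ZP3 ran from -2.75 to 2.01 when a hen was left out. The correlation of ZP2 with ZP3 was -0.498 without O1723_ad and O1724_R, rho was -0.0857, and r was 0.715 after the feeding means were subtracted. With the hen as replicate block, the ovary minus adipose difference of ZP3 was 2.49 and the interaction 2.76 (adjusted p = 0.907), and the block changed no other call among those fitted for ZP2, ZP3, ZP4 and UMOD; the number of genes called for ovary minus liver was 10847 with the block and 10801 without it. UMOD in ovary minus liver missed the threshold in restricted hens alone (2.01, adjusted p = 0.162). UMOD did not pass the filter in liver, so this difference is a description in every fit. The cause of these changes was not tested. Values near 0.129 to 0.203 CPM rest on about 3 counts.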

Other observations

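A list of the estrogen receptor ESR1 and 5 genes that the liver makes for the yolk was described beside the members. All 6 genes, among them VTG1, VTG2 and VTG3, the yolk protein precursors, had positive log2 fold changes in liver (median 0.56). 2 of them, ESR1 and VTG3, were at an unadjusted p under 0.05 (6.24% of all genes tested in liver were positive at this level). 0 passed adjustment by the edgeR quasi-likelihood test, which called 1 of 10339 genes in liver. The summed level of these 6 genes in liver was 235293 to 377601 CPM with ad libitum feeding and 185981 to 260807 CPM with restriction. ESR1 averaged 36.0 ± 4.05 CPM in ad libitum livers and 17.0 ± 4.58 CPM in restricted livers (SD, n = 3 each).

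Of 9 listed genes that carry a ZP domain outside the egg coat, OIT3 and ENG were found besides UMOD. OIT3 averaged 134.0 ± 16.5 CPM in ad libitum livers and 98.1 ± 32.7 CPM in restricted livers, and ENG, a receptor of blood vessel cells, averaged 425.6 ± 188.8 CPM in ad libitum fat and 278.0 ± 30.0 CPM in restricted fat (SD, n = 3 each). The feeding groups overlapped for both, with adjusted p = 0.446 for OIT3 in liver and 0.907 for ENG in fat by the edgeR quasi-likelihood test. In ovary the log2 fold change of ENG was 0.34, and neither gene passed the adjusted threshold there, as did 0 of the 12871 genes tested.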
